A study of Mus musculus with 180 samples.

Results

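IMD-0354 is a clinical kinase inhibitor (CKI) whose designated target is IKBKB, the catalytic subunit IKKβ of the IκB kinase (IKK) complex, while the target assigned to it from kinobeads, an affinity matrix that captures kinases, and at which the study aimed its concentration, is MAP4K5. Its effect on steady-state RNA was read in 3 samples of bone marrow-derived macrophages (BMDMs), taken here by their treatment label, and set against the 6 samples that received the solvent DMSO, out of 180 samples in the series. All of these samples were wild-type BMDMs grown from the marrow of male C57/BL6 mice, pre-treated for 1 h with IMD-0354 or DMSO and then stimulated for 2 h with 10 ng/ml LPS, so that no unstimulated cells enter the comparison. The DMSO samples carry the labels of 2 sets of 3, and the labels do not say to which set the IMD-0354 samples belong. Only that concentration was used, and inhibition of either kinase in these cells was not measured here. Polyadenylated RNA was sequenced by SMART-seq2, and the values are read counts per gene that the authors scaled between samples by invariant genes, called normalized values below. Of the 45070 genes in the table, the 12714 whose normalized values averaged 10 or more over the series were tested.

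LPS, the bacterial cell wall lipid sensed by macrophages, activates the receptor TLR4, which signals through the adaptor MYD88 to the IKK complex and through the adaptor TICAM1 to the IKK-related kinases TBK1 and IKBKE. IKKβ phosphorylates the inhibitor IκBα, whose degradation frees NF-κB dimers to enter the nucleus and activate genes for cytokines, chemokines and NF-κB's own inhibitors. TBK1 activates IRF3, which together with NF-κB and AP-1 switches on *Ifnb1*, the gene of interferon β, and secreted interferon β then induces the interferon-stimulated genes.

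The sums of normalized values lay between 9885985 and 11504068 in the 3 IMD-0354 samples and between 9481416 and 11094387 in the 6 DMSO samples, and the raw depth behind them is not given in the sources used here. IMD-0354 replicate 1 stood apart by its mitochondrially encoded transcripts, which made up 1.63% of its sum, against 0.579% and 0.576% in replicates 2 and 3 and 0.301% to 1.05% in the DMSO samples. The difference in this share was 0.330 percentage points (p = 0.286, two-sided exact permutation test over 84 splits), and it was -0.0200 without replicate 1. Within each replicate number, however, the IMD-0354 share was above both DMSO shares, and permuting within numbers gave p = 0.037 (exact), the smallest that its 27 splits allow. In the series 23 of the 180 samples had a higher share than IMD-0354 replicate 1. Samples with the same replicate number deviated together from their group means, so results of a fit with a replicate block are given where they change a call. The macrophage marker *Csf1r*, which encodes the CSF1 receptor, was between 23846 and 25591 in the IMD-0354 samples and between 24416 and 25418 in the DMSO samples. None of 12 macrophage markers passed the test, and the summed level of 10 markers of neutrophils and their precursors was 502 to 1632 with IMD-0354 and 303 to 1016 with DMSO, highest in the sample with the most mitochondrial transcripts. Markers of mast and erythroid cells summed to at most 1 in any of the 9 samples, those of lymphocytes and NK cells to at most 45 and those of fibroblasts to at most 180. In bulk RNA, a change in the number of cells of a type and a change in RNA per cell cannot be told apart.

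IMD-0354 changed few genes. By limma with Benjamini-Hochberg adjustment over the 12714 genes, 13 genes rose and 34 fell at an adjusted p under 0.05, which is 0.102% and 0.267% of the genes tested and 0.37% in all. *Ifnb1*, the immediate-early gene *Fosb* and the chemokine genes *Cxcl1* and *Ccl2* were among those that rose, while the IL-4 receptor gene *Il4ra*, the transcription factor gene *Irf8*, the glycolytic regulator gene *Pfkfb3* and 7 genes of the sterol synthesis list fell. For comparison, the same fit called 0 genes between the 2 DMSO sets. There 310 genes had an unadjusted p under 0.05, against 1127 for IMD-0354. Fewer samples enter the comparison of the sets, so it detects less. Both sets also hold the same replicate numbers, whose shared deviations cancel between the sets but stay in the error of this fit. A fit with the replicate block again called 0 genes between the sets, with 465 at an unadjusted p under 0.05. The 0 is therefore no measure of how many calls arise without an inhibitor. By their number of changed genes, 24 of the other CKIs exceeded IMD-0354 and 33 had fewer. With the replicate block 111 genes passed, 51 higher and 60 lower (0.873% of the genes tested, 0.401% higher and 0.472% lower), and these held all 47 genes called without it. The samples of the 2 treatments did not overlap for 42 of the 47 genes, 13 above and 29 below DMSO, as was the case for 438 (3.45%) of all genes tested, 2.37% above and 1.08% below. The count depended on IMD-0354 replicates 2 and 3, without which 19 and 16 genes were called, and it was 75 without replicate 1. It also fell to 23 and 24 with either DMSO set alone as the reference, and to 3, *Il4ra*, *B3gnt7* and *Cxcl1*, in a fit of only the 9 samples compared. In the plot of all genes tested, the 47 genes lie away from a cloud whose median log2 fold change was 0.087, or 0.010 after median-of-ratios scaling, which called 58 genes, 10 higher and 48 lower.

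**Figure D1:**
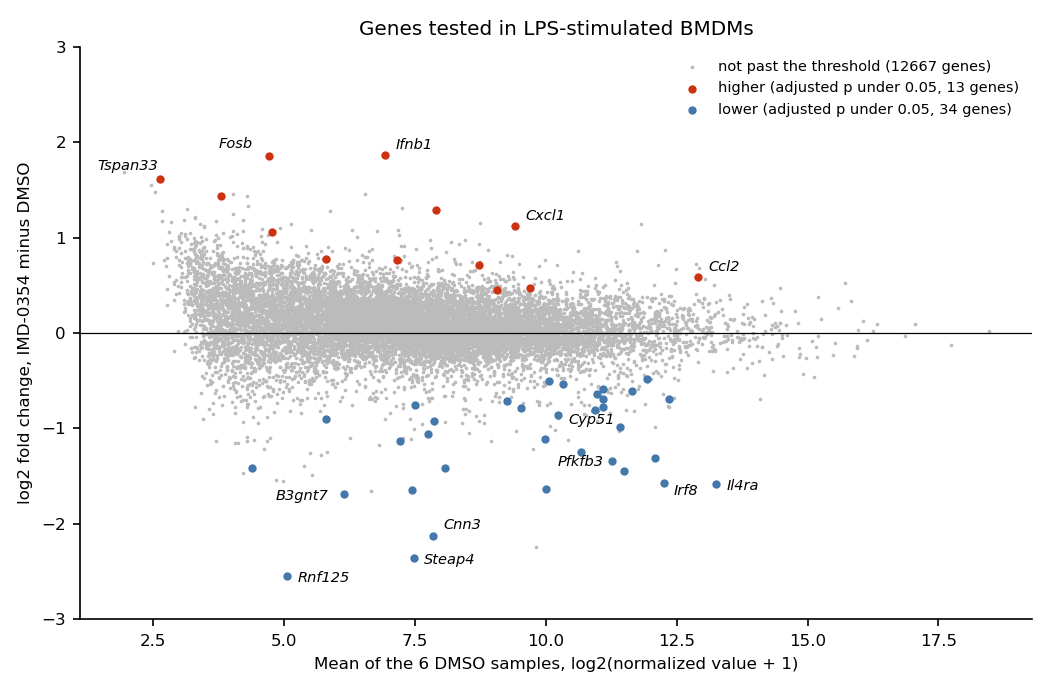
Log2 fold change of IMD-0354 against DMSO for the 12714 genes tested (vertical axis) by the mean of the 6 DMSO samples on the log2(normalized value + 1) scale (horizontal axis), with 13 genes that rose in red and 34 that fell in blue. *Ifnb1* and *Fosb* are the highest of the red points and *Rnf125* the lowest of the blue ones.

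The stretches just upstream of 3 changed genes are shown because they hold the letters that NF-κB or the sterol-sensing factor SREBF2 is known to bind, and because the results below turn on these genes. In the 250 bases before each RefSeq start (GRCm38.p6, given 5′ to 3′ on the gene's strand), GGGA and TTCC separated by any 2 bases were searched as a κB motif and TCACNCCAC, with N any base, as a sterol regulatory element (SRE), on both strands. Capitals mark the match, which at *Cxcl1* is 2 overlapping matches on opposite strands. *Ifnb1* (chr4:88522795-88523044, minus strand) and *Cxcl1* (chr5:90890995-90891244, plus strand) hold the κB letters, and *Hmgcs1* (chr13:119690101-119690350, plus strand) holds the SRE.
Ifnb1: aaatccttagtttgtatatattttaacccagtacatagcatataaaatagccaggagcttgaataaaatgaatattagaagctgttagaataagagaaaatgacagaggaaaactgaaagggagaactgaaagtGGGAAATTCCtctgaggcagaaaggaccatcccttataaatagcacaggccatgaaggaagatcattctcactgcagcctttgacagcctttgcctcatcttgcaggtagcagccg
Cxcl1: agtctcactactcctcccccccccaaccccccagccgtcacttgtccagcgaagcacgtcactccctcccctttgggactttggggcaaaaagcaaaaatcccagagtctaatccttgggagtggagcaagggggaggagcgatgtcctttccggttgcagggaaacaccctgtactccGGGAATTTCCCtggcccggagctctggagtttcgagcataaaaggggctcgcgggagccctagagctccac
Hmgcs1: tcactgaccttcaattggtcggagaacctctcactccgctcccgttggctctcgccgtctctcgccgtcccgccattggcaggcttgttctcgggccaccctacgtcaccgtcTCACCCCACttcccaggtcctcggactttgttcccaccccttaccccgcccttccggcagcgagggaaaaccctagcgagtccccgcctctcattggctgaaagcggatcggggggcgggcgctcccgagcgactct

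Such letters were found in few genes of either kind. An upstream sequence was at hand for 37 of the 47 changed genes and for 27025 genes in all. The κB motif was in 2 of the 11 genes that rose, these being *Ifnb1* and *Cxcl1*, and in 0 of the 26 that fell. It was in 1.68% of the 9131 genes tested that had a sequence, and in 1.36% of all genes. The SRE was in 3 of the 26 genes that fell, *Hmgcs1*, *Cnn3* and *Sh3gl1*, and in 0 of the 11 that rose. It was in 1.17% of the genes tested that had a sequence, and in 1.22% of all genes. Of the 5 sterol genes that fell and had a sequence, *Hmgcs1* was the only match. A match is a run of letters in this window and was not tested for binding.

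*Ifnb1* had the largest log2 fold change of the 13 genes that rose. The gene lies at chr4:88522025-88522794 (mm10, minus strand). Its normalized values in DMSO were 129, 99 and 75 in set 1 and 262, 79 and 86 in set 2, and they were 614, 308 and 344 with IMD-0354. Every IMD-0354 sample lay above every DMSO sample, and replicate 1 was the highest of its group with IMD-0354 and in both DMSO sets. The log2 fold change was 1.87 ± 0.40 (SE), which is 3.65-fold (limma, adjusted p = 0.0041). Without IMD-0354 replicate 1 it was 1.56 with an adjusted p of 0.0939, and with DMSO set 2 alone 1.72 with an adjusted p of 0.109. Across the 59 group means, that of IMD-0354, 422, was the fourth highest, between Lapatinib with 372 and BGT226 with 453, and the extremes were 10.0 with Midostaurin and 1553 with Omipalisib. The other 15 type I interferon genes listed had means under 10 and were not tested.

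**Figure D2:**
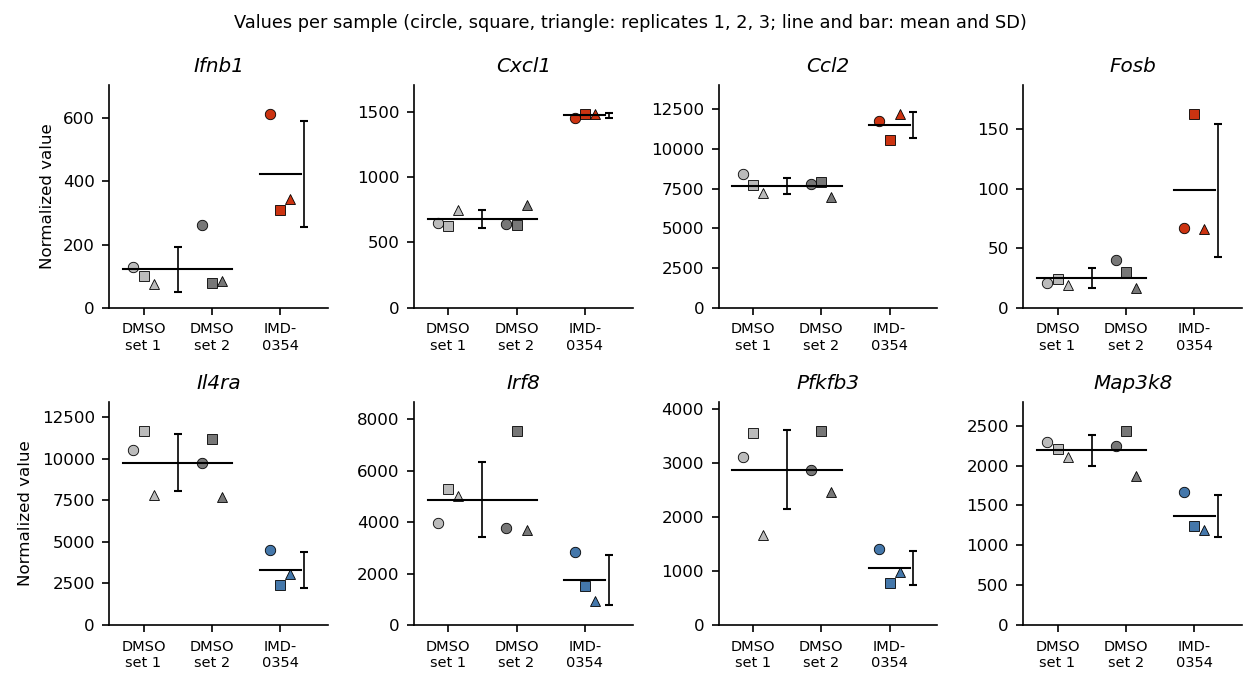
Normalized values (vertical axis, from 0) of 8 genes in each DMSO sample of sets 1 and 2 and each IMD-0354 sample, with replicates 1, 2 and 3 as circle, square and triangle and the mean and SD of the 6 DMSO and 3 IMD-0354 samples as line and bar. The IMD-0354 samples of *Ifnb1*, *Cxcl1*, *Ccl2* and *Fosb* lie above all DMSO samples, and those of *Il4ra*, *Irf8*, *Pfkfb3* and *Map3k8* below them.

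No interferon-stimulated gene was called beside the rise of *Ifnb1*. By limma, 0 of 70 tested passed (smallest adjusted p = 0.212, and 0.123 with the replicate block), 57 had a log2 fold change below 0, and their median was -0.25, against 0.087 for all genes. *Cxcl10*, an interferon-inducible chemokine gene, was 81575, 64411, 56043, 112277, 58561 and 56861 in DMSO and 120675, 48365 and 48454 with IMD-0354. Replicate 1 was thus the highest sample of *Cxcl10* and the other 2 the lowest, and the log2 fold change was -0.08 with a 95% interval of -0.66 to 0.51. *Ifit1*, an antiviral effector, was 31681, 9209 and 7615 with IMD-0354 against 9614 to 25403 in DMSO, and its interval ran from -0.94 to 0.67. Among 8 IRF transcription factor genes, *Irf8*, which directs the monocyte and macrophage lineage, was the only member called. *Irf8* was 3944, 5289, 5012, 3786, 7541 and 3680 in DMSO and 2826, 1505 and 937 with IMD-0354, with no overlap. Its log2 fold change was -1.57 ± 0.31 (adjusted p = 0.000868), and without replicate 3 it was -1.19 with an adjusted p of 0.212.

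The kinases and adaptors upstream of NF-κB were mostly not called. Of 26 tested, 0 rose and 2 fell, against 0.267% of all genes that fell, and the median log2 fold change was 0.07. With either DMSO set alone, or with only the 9 samples compared in the fit, 0 of the 26 were called. *Ikbkb*, which encodes IKKβ itself, was 796, 1011, 948, 791, 1042 and 919 in DMSO and 739, 846 and 870 with IMD-0354, so that the groups overlapped and the difference of -0.16 on the log2 scale had an interval from -0.41 to 0.09. The transcripts of its partners *Chuk* (IKKα) and *Ikbkg* (NEMO) also did not pass, with intervals from -0.69 to 0.16 and from -0.33 to 0.46, and *Map4k5* was between 12 and 17 with IMD-0354 and between 3 and 15 with DMSO. The pair that fell were *Map3k8*, the kinase TPL2 that couples IKK to ERK activation, and the adaptor gene *Myd88*. *Map3k8* was 2291, 2211, 2104, 2242, 2436 and 1870 in DMSO and 1673, 1244 and 1192 with IMD-0354, a log2 fold change of -0.69 ± 0.15 (adjusted p = 0.00528). *Myd88* was 3630, 4269, 3759, 3534, 4548 and 3648 in DMSO and 3070, 2814 and 2475 with IMD-0354, a change of -0.48 ± 0.12 (adjusted p = 0.0415). Neither overlapped with DMSO, and the *Map3k8* mean of 1370 was the lowest of the 59 groups, followed by Filgotinib with 1424. Both calls were lost without IMD-0354 replicate 2 or 3, where the adjusted p was 0.151 and 0.199 for *Map3k8* and 0.208 and 0.470 for *Myd88*, and *Myd88* also without replicate 2 of DMSO set 1 (0.107) or of set 2 (0.159).

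The transcripts of NF-κB and of its inhibitors did not pass the test. Among the 5 subunits 0 were called, and for *Rela*, the transactivating subunit most used in this response, the values were 888, 867, 920, 961, 1037 and 844 in DMSO and 943, 895 and 822 with IMD-0354, with an interval of the log2 difference from -0.20 to 0.10. Among the 19 feedback inhibitors 0 were called, 14 had a log2 fold change below 0, and the median was -0.12. *Nfkbia*, the NF-κB target that encodes IκBα, was 32803, 39183, 39889, 32236, 41142 and 36940 in DMSO and 28648, 33874 and 30694 with IMD-0354. The groups overlapped at replicate 2 of IMD-0354, and the difference of -0.25 had an interval from -0.43 to -0.07 (adjusted p = 0.313). *Tnfaip3*, which encodes the deubiquitinase A20, was 5700, 4148 and 3548 with IMD-0354 and 3424 to 9371 in DMSO, with an interval from -0.71 to -0.03 (adjusted p = 0.508). *Bcl3* had the smallest adjusted p of the list, 0.109, at a difference of -0.66. With the replicate block the smallest adjusted p of the list was 0.0585 (limma). After median-of-ratios scaling 1 of the 19 inhibitors passed as lower.

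**Figure D3:**
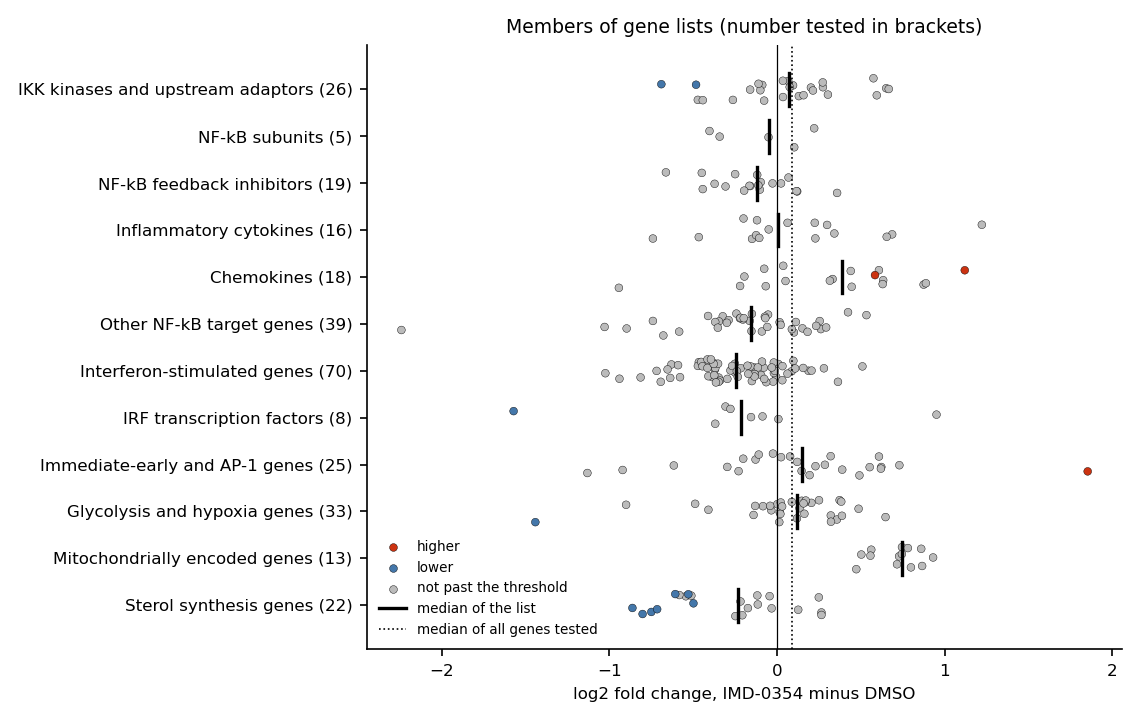
Log2 fold change of IMD-0354 against DMSO (horizontal axis) for the tested members of 12 gene lists, with members that rose in red, that fell in blue and the others in grey. Bars are list medians, the dotted line is the median of all genes tested, 0.087, and the blue points gather in the sterol list with 7 of 22.

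Cytokine genes were likewise not called. Of 16 inflammatory cytokine genes tested 0 passed, 8 lay on each side of 0, and the median was 0.01. *Tnf*, an early product of NF-κB activation, was 6668, 8932, 7228, 8483, 7518 and 7676 in DMSO and 19364, 11659 and 8475 with IMD-0354. The mean was higher with IMD-0354 but replicate 3 lay inside the DMSO range, and the difference of 0.69 had an interval from 0.08 to 1.29 (adjusted p = 0.484). *Il1b* was 8999, 2763 and 2650 with IMD-0354 and 2842 to 6751 with DMSO, and *Il6* was 1502, 417 and 341 against 337 to 757. For both cytokine genes replicate 1 was above and replicates 2 and 3 were near or below the lower end of the DMSO values, and both intervals included 0. Of 39 other NF-κB target genes 0 passed either, 26 lay below 0 and the median was -0.15. Their smallest adjusted p was 0.105 by limma, and 0.0562 with the replicate block. *Nos2*, the inducible nitric oxide synthase gene, had the lowest value of that list, with 592, 110 and 72 against 432 to 1626 in DMSO and a log2 difference of -2.24 with an interval from -3.59 to -0.89 (adjusted p = 0.152).

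Among the chemokine genes, 2 of 18 tested rose, *Cxcl1* and *Ccl2*, against 0.102% of all genes, and the median was 0.39. *Cxcl1*, which attracts neutrophils, was 651, 622, 746, 640, 630 and 786 in DMSO and 1448, 1485 and 1479 with IMD-0354. The 3 treated samples lay close together and above the highest DMSO sample, and the log2 fold change was 1.12 ± 0.19 (adjusted p = 6.14e-05). *Ccl2*, which attracts monocytes, was 8431, 7753, 7253, 7823, 7919 and 6977 in DMSO and 11753, 10603 and 12237 with IMD-0354, a change of 0.58 ± 0.12 (adjusted p = 0.00267), or 0.0986 without replicate 3. With the replicate block 4 of the 18 were called, against 0.401% of all genes called higher, the further pair being *Cxcl2* (0.63, adjusted p = 0.0277) and *Cxcl3* (0.63, adjusted p = 0.00201), both also ligands for neutrophils. *Ccl3* and *Ccl4* did not pass, and their highest values, 25220 and 89353, were in IMD-0354 replicate 1.

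AP-1 and other immediate-early genes had 1 member called of 25, a rise, against 0.102% of all genes that rose. With either DMSO set alone 0 of the 25 were called. *Fosb*, an AP-1 subunit, was 21, 24, 19, 40, 30 and 17 in DMSO and 67, 163 and 66 with IMD-0354, with replicate 2 the highest and no overlap. The log2 fold change was 1.85 ± 0.44 (adjusted p = 0.019), and without replicate 2 it was 1.43 with an adjusted p of 0.470. Without replicate 3 the adjusted p was 0.0556, and without replicate 3 of DMSO set 2 it was 0.0514. *Fosl2*, also an AP-1 subunit, was called lower with the replicate block at -1.13 (adjusted p = 2.24e-07) and not without it (0.0704), with 333, 140 and 191 against 706, 451, 259, 834, 342 and 379 in DMSO. Within each replicate number the *Fosl2* value was below both DMSO values, although the groups overlapped as a whole.

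The other genes that rose by the largest log2 fold changes were of mixed kinds. The tetraspanin gene *Tspan33* rose by 1.62 from 3 to 8 in DMSO to 12 to 22, and *Cdk5r1*, an activator of the kinase CDK5, by 1.44 from 6 to 19 to 33 to 35. *Jmjd1c*, which encodes a JmjC-domain protein, rose by 1.29, the chondroitin sulfotransferase gene *Chst3* by 1.06, *Kin* by 0.78, the cell cycle regulator *Rgcc* by 0.76 and the protocadherin gene *Pcdh7* by 0.71. *Lrrc8d*, a subunit of volume-regulated anion channels, rose by 0.47, but it overlaps the pseudogene *Rps15a-ps5* on the opposite strand, whose mean was 262 against 993, and the counting is not stated to use strand. All of these samples lay above all DMSO samples, and the values of *Tspan33* and *Cdk5r1* are near the lower limit of the genes tested. With the replicate block all of them passed (limma, largest adjusted p = 0.0283, for *Tspan33*), but no sample was left out of that fit. In the fit without the block none of these calls was stable. Each was lost without IMD-0354 replicate 2, without replicate 3 and without at least 1 DMSO sample. Without replicate 2 the adjusted p ran from 0.0857 for *Tspan33* to 0.337 for *Chst3*, and without replicate 3 from 0.0502 for *Chst3* to 0.289 for *Tspan33*. After median-of-ratios scaling *Kin* (0.0603), *Rgcc* (0.0651) and *Lrrc8d* (0.103) were not called, nor was *Tspan33* with a pseudocount of 10 (0.0757). The remaining gene that rose, named after its value was seen, was *Npy*, the neuropeptide Y gene, by 0.45, a call also lost without replicate 2 (0.182) or 3 (0.348) and after median-of-ratios scaling (0.105).

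Sterol synthesis was the list with the most called genes. Of 22 members tested 7 fell and 0 rose, against 0.267% of all genes that fell, and the median over the 22 was -0.23. These genes, many of them targets of the sterol-sensing factor SREBF2, act mostly on the way from acetyl-CoA to cholesterol. With the replicate block 9 fell, *Sqle* at -0.51 (adjusted p = 0.0178) and *Insig1* at -0.58 (adjusted p = 0.044) being added. The list holds fewer called genes in a fit of the 9 samples alone, in which 0 of the 22 passed.

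An early step of the pathway was lower. *Hmgcs1*, whose upstream stretch with an SRE is given above and which makes HMG-CoA, was 2310, 2055, 1721, 2151, 1604 and 1985 in DMSO and 1244, 1158 and 978 with IMD-0354. The highest treated sample was below the lowest DMSO sample, and the log2 fold change was -0.80 ± 0.13 (adjusted p = 1.55e-05).

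Later steps fell as well. *Cyp51*, the lanosterol demethylase, was 1207, 1199, 1280, 999, 1242 and 1264 in DMSO and 561, 700 and 720 with IMD-0354, a change of -0.86 ± 0.12 whose adjusted p, 2.15e-07, was with that of *Rnf125* the smallest of all genes. *Sc5d*, a sterol desaturase, was 698, 617, 656, 710, 488 and 514 in DMSO and 414, 328 and 372 with IMD-0354, at -0.72 (adjusted p = 1.55e-05). Neither gene overlapped, and both kept their call without any 1 of the 9 samples. *Msmo1*, the methylsterol oxidase, was 944 to 1429 in DMSO and 850 to 916 with IMD-0354, at -0.53 (adjusted p = 0.00279), or 0.132 with DMSO set 2 alone. *Hsd17b7*, which acts in the demethylation of sterols, was 138 to 235 and then 95 to 113, at -0.75 (adjusted p = 0.000838), or 0.0587 without IMD-0354 replicate 3. Other groups had lower means than IMD-0354 among the 59, namely 6 for *Cyp51*, 4 for *Hmgcs1* and 3 for *Sc5d*. For *Msmo1* and for *Hsd17b7* there were 7, and Omipalisib was the lowest group for each of these genes.

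The other 15 members did not pass. *Idi1*, an isomerase of the isoprenoid branch, was 802, 593 and 675 against 835 to 1261, at -0.54 with an interval from -0.89 to -0.20 (adjusted p = 0.196). *Srebf2* was 2053, 3039 and 2652 against 2328 to 4342, with an interval from -0.57 to 0.13. *Fdps*, *Dhcr7*, *Nsdhl* and *Ebp* overlapped between the groups, and the last 3 had values above 0 of at most 0.26. The list as a whole was thus uneven, with 18 values below 0 and 4 above.

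**Figure D4:**
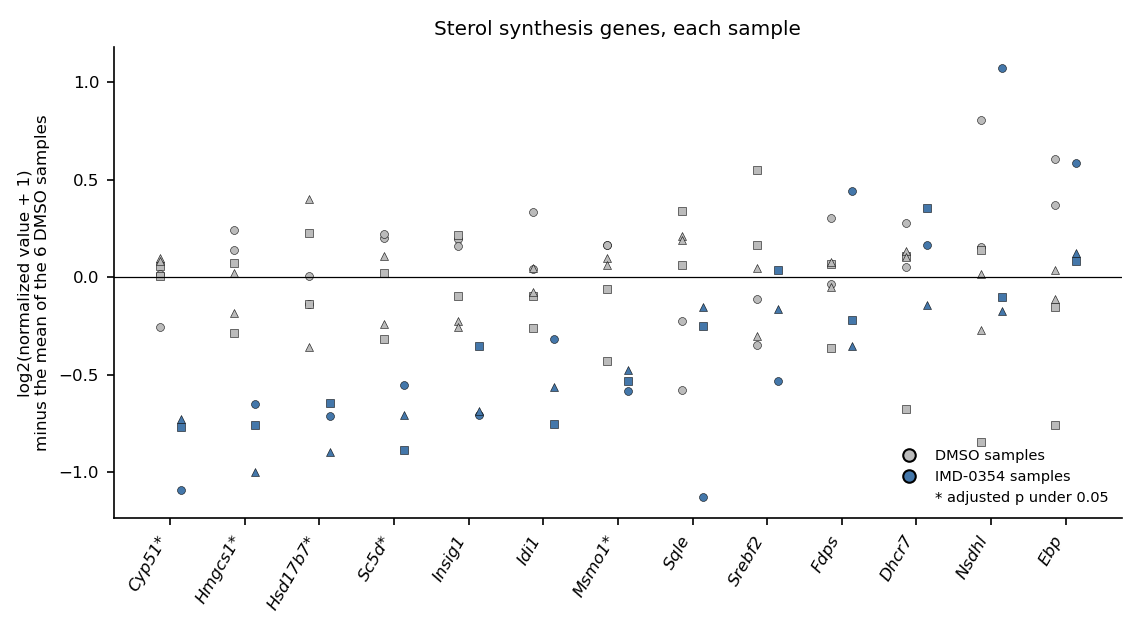
The 13 sterol synthesis genes named in the text (horizontal axis, ordered by log2 fold change), with log2(normalized value + 1) of each sample minus the mean of the 6 DMSO samples on the vertical axis, DMSO samples in grey and IMD-0354 samples in blue, and replicates 1, 2 and 3 as circle, square and triangle. For the 5 genes with an asterisk all blue points lie below all grey ones.

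*Il4ra*, the receptor chain shared by IL-4 and IL-13, lies at chr7:125552271-125579474 (mm10, plus strand) and was lower in every IMD-0354 sample than in any DMSO sample. Its values were 10516, 11680, 7838, 9741, 11198 and 7673 in DMSO and 4538, 2412 and 3042 with IMD-0354. The treated samples lay far below the lowest DMSO sample, the log2 fold change was -1.58 ± 0.25 (adjusted p = 1.02e-05), and the call held in each of the 11 other settings and without any 1 sample. *Sbno2* was 4005, 5321, 3504, 3715, 6196 and 3418 in DMSO and 2106, 1494 and 1582 with IMD-0354, at -1.31 ± 0.21 (adjusted p = 1.55e-05). *Pfkfb3*, which raises glycolytic flux through fructose 2,6-bisphosphate, was 3115, 3563, 1664, 2881, 3599 and 2466 in DMSO and 1400, 782 and 988 with IMD-0354, at -1.44 ± 0.27 (adjusted p = 0.00038), or 0.061 without replicate 2. *Pfkfb3* was the only called member of the 33 glycolysis and hypoxia genes tested, whose median was 0.12. For *Sbno2* and *Pfkfb3* the IMD-0354 mean was the lowest of the 59 groups, with Mubritinib next for both. The means were 1727 with IMD-0354 and 2053 with Mubritinib for *Sbno2*, and 1057 and 1183 for *Pfkfb3*.

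Large falls were also seen in genes of lower level. *Rnf125*, a ubiquitin ligase gene, was 33, 41, 24, 35, 28 and 32 in DMSO and 10, 1 and 7 with IMD-0354, the largest log2 fold change of the 34 genes that fell, at -2.55 ± 0.35 (adjusted p = 2.15e-07). *Steap4*, a metalloreductase gene, was 124 to 215 in DMSO and 92, 12 and 32 with IMD-0354, at -2.36 ± 0.53 (adjusted p = 0.0109), or -1.66 with an adjusted p of 0.504 without replicate 2 and 0.120 without replicate 3. Both genes had replicate 2 as their lowest sample. *Cnn3*, the calponin 3 gene, was 141 to 375 in DMSO and 86, 34 and 41 with IMD-0354, at -2.12 (adjusted p = 0.00159), or 0.104 and 0.0587 without replicates 2 and 3. *B3gnt7*, a glycosyltransferase gene, was 62 to 76 in DMSO and 32, 16 and 18 with IMD-0354, at -1.69 (adjusted p = 4.11e-05), and this call held in each of the 11 other settings. The semaphorin gene *Sema4c* fell by 1.65 and the endothelial lipase gene *Lipg* by 1.64, the latter call being lost without IMD-0354 replicate 2 (0.279) or 3 (0.218) and without replicate 2 of DMSO set 2 (0.0678).

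The fall of *Car2* rested on low values, and the count of *Gpr146* may hold reads of another gene. *Car2*, the carbonic anhydrase 2 gene, was 17 to 25 in DMSO and 14, 1 and 15 with IMD-0354, and its fall of 1.41 on the log2 scale was 0.43 without replicate 2, with an adjusted p of 0.685. *Car2* was also lost without replicate 2 of DMSO set 2 (0.0639) and with a pseudocount of 10 (0.153). *Gpr146*, an orphan receptor gene, fell by 1.41 from 171 to 364 to 85 to 117, but it overlaps *3110082I17Rik* on the opposite strand, whose mean over all samples was 248 against 221, so that reads of the pair cannot be told apart. Further genes with adjusted p-values under 0.001 that are named here after their values were seen were *Ggta1*, a galactosyltransferase gene, at -1.11 and *Arid5a*, an RNA-binding regulator, at -0.98. Without IMD-0354 replicate 2 or 3 the adjusted p was 0.134 and 0.0561 for *Ggta1* and 0.0729 and 0.131 for *Arid5a*.

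The remaining lists had few or no called genes. Mitochondrially encoded genes all had log2 fold changes above 0, with a median of 0.74, but 0 of 13 passed and their summed level was 187250 at most with IMD-0354, in replicate 1, against 116640 in DMSO. Of 37 complex I genes and 73 cytosolic ribosomal protein genes, 0 passed, with medians of 0.13 and 0.26. None of 38 genes of the integrated stress response passed, and with the block *Asns*, which makes asparagine, was called at 0.40 (adjusted p = 0.0235). The block also called *Bbc3*, a pro-apoptotic BCL2 family member and p53 target, at 0.91 (adjusted p = 0.0466), with 67, 98 and 72 against 30 to 56 in DMSO. With the mitochondrial share added to the block, 0 members of the p53 and BCL2 lists were called, *Bbc3* included. No member of the lists of MAPK feedback, NRF2, endoplasmic reticulum chaperone, heat shock, other nuclear respiratory chain, lysosome, proteasome, cell cycle and MAP4K family genes was called in either fit.

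To set IMD-0354 beside inhibitors used against kinases related to its designated target, it was compared directly, in the same fit, with Midostaurin, used against TBK1, and Momelotinib, used against IKBKE, and also with Mubritinib, chosen because *Ifnb1* was known to be higher with it as well, so that the *Ifnb1* values of that pair are a description. These are 3 pairs, each inhibitor was used at its own concentration, and p-values are adjusted over the 12714 genes in each pair. IMD-0354 differed from Midostaurin at 310 genes (2.44%, with 0.96% higher and 1.48% lower), from Momelotinib at 42 (0.33%, with 0.0944% higher and 0.236% lower) and from Mubritinib at 8 (0.0629%, with 0.0393% higher and 0.0236% lower), and with the replicate block at 500, 76 and 25. Of the 47 genes changed by IMD-0354, 32 differed from Midostaurin, 18 from Momelotinib and 0 from Mubritinib. These 47 genes were selected on the same 3 IMD-0354 samples that enter each pair, which favours differences, so the counts are a description and no test of the list. In the 3 direct comparisons 1112, 536 and 334 genes had an unadjusted p under 0.05.

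*Ifnb1* was 11, 7 and 12 with Midostaurin, 55, 65 and 58 with Momelotinib and 1583, 1680 and 412 with Mubritinib, beside the 614, 308 and 344 with IMD-0354. IMD-0354 was thus above Midostaurin by 5.23 and above Momelotinib by 2.74 on the log2 scale (adjusted p = 3.27e-17 and 6.03e-05), and the groups with Mubritinib overlapped, at -1.36 with an interval from -2.27 to -0.44 that did not pass the adjustment. *Il4ra* was 19423, 18100 and 16126 with Midostaurin and 10832, 6802 and 6661 with Momelotinib, from which IMD-0354 differed by -2.47 and -1.29 (adjusted p = 1.92e-11 and 0.00762). With Mubritinib *Il4ra* was 3781, 2404 and 4286, and the interval of the difference was -0.64 to 0.49. *Hmgcs1* was 1136, 1170 and 1062 with Mubritinib, with an interval from -0.29 to 0.29, and 1754 to 2137 with the other pair, from which IMD-0354 differed by -0.82 and -0.79. *Cyp51* differed from these by -0.57 and -0.62, and its interval against Mubritinib was -0.08 to 0.46.

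Not every gene separated IMD-0354 from Midostaurin and Momelotinib. *Cxcl1* was 1666, 1029 and 1488 with Midostaurin, 2142, 1356 and 1782 with Momelotinib and 1129, 1145 and 712 with Mubritinib, and the intervals of the differences were -0.33 to 0.55, -0.67 to 0.21 and 0.16 to 1.04, none past the adjusted threshold. *Irf8* was 1889 to 2257 with Midostaurin and 1446 to 2152 with Momelotinib, below all DMSO samples, as with IMD-0354, with intervals from -1.04 to 0.36 and from -0.88 to 0.52. The fold changes of the 3 other inhibitors against DMSO share their control samples with that of IMD-0354, so only the direct differences are given.

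**Figure D5:**
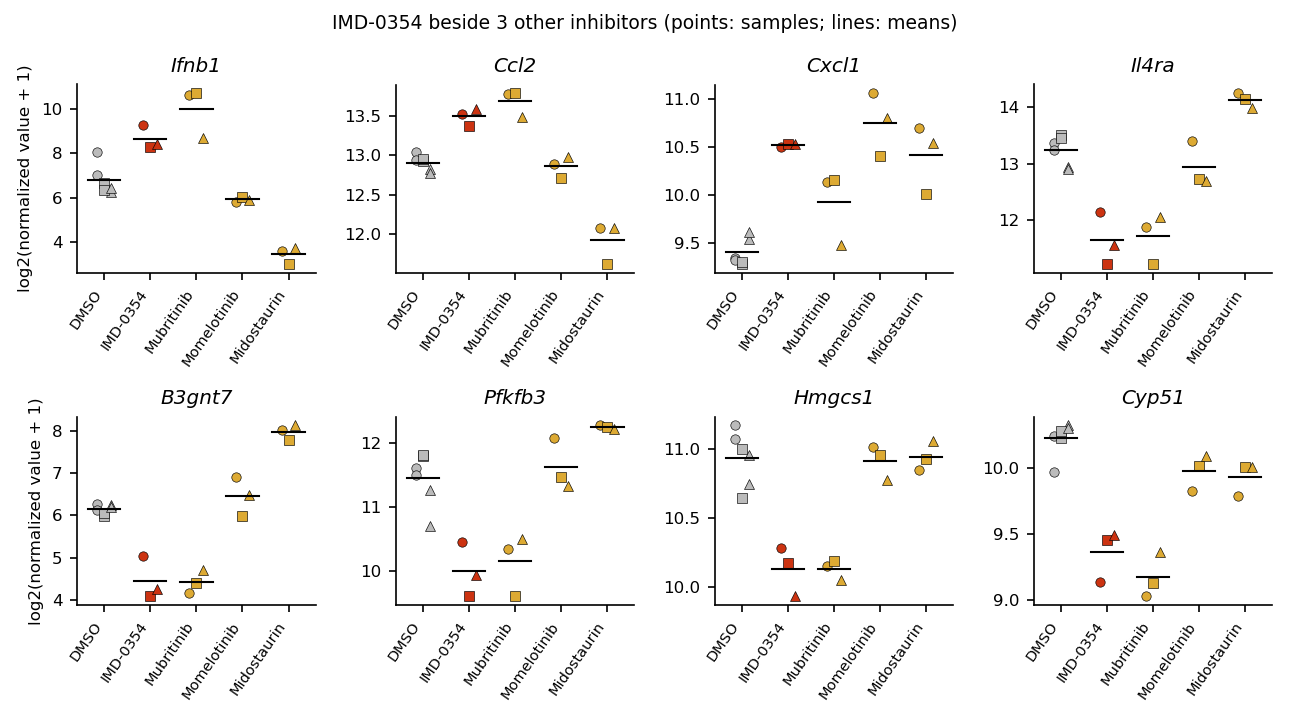
Log2(normalized value + 1) (vertical axis) of 8 genes in the 6 DMSO samples and in 3 samples each of IMD-0354, Mubritinib, Momelotinib and Midostaurin, with replicates 1, 2 and 3 as circle, square and triangle and group means as lines. IMD-0354 lies near Mubritinib for *Il4ra*, *B3gnt7*, *Pfkfb3*, *Hmgcs1* and *Cyp51* and away from Momelotinib and Midostaurin.

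The 8 genes that differed from Mubritinib, named after their values were seen, were not among those called for IMD-0354 against DMSO. The stress-induced cytokine gene *Gdf15* had a mean of 70.3 with IMD-0354, 55 with DMSO and 780 with Mubritinib, a direct difference of -3.33 (adjusted p = 1.14e-05). *Txnip*, a glucose-responsive inhibitor of thioredoxin, had means of 537, 545 and 103 in the same order, at 2.43 (adjusted p = 1.16e-12). *Gm15441*, which overlaps *Txnip* on the opposite strand, was at 2.299, and whether the pair share reads was not checked. *Atf4* and *Fos* were lower with IMD-0354 than with Mubritinib, at -0.52 and -0.91, and *Rarg*, *Rhob* and *Tsc22d1* were higher by 0.83, 0.89 and 0.48.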

How the data were processed

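RNA of BMDMs was measured by SMART-seq2 in 180 samples of 59 groups (58 CKIs and DMSO), from 3 independent biological replicates per the study's methods. The deposited table holds 1 score per gene and sample: the authors mapped reads to mm10 with TopHat2 2.1.1, removed blacklisted regions with bedtools 2.29.2, counted reads per RefSeq gene, scaled the counts by invariant genes and rounded them to whole numbers. Raw counts, and whether counting used strand, are not given in the sources used here. The authors' DESeq2 comparisons (R 3.6.2) were not used here. The sums per sample lay between 9477340 and 12273349 over the series. Since the scaled values are no raw counts, no count model was fitted. 0 columns of the table were without a sample.

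Values were tested as log2(normalized value + 1) with limma 3.58.1 (lmFit, contrasts.fit, eBayes with trend, R 4.3.3) in 1 fit of all 59 groups, over the 12714 genes with a mean of at least 10, with Benjamini-Hochberg adjustment and a threshold of 0.05. Fold changes are on that scale, which understates those of low genes, and intervals are at 95%. Shares and sums were compared by exact permutation tests (Python with NumPy), for which the smallest p over 84 splits is 0.0119. Data were simulated for IMD-0354 against DMSO over 12714 genes. The fit recovered 67% of genes simulated with a log2 change of 1 and 94% of those with 2, and 12 unchanged genes were called. Each simulated sample was drawn independently, without the variation that real samples of the same replicate number share. These rates therefore need not hold for the real samples.

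The replicate numbers in the labels were checked for pairing by the correlation of deviations from group means. It was 0.199 to 0.687 in all 6 pairs with the same number, with a mean of 0.428. In 12 pairs with other numbers it was -0.549 to 0.296, with a mean of -0.212, so the ranges overlap. Deviations in a group of 3 sum to 0, so this negative mean follows in part from the positive correlations and is no separate evidence. The replicate number as a block was therefore run as an alternative beside pseudocounts of 0.5 and 10, other filters, another scaling, each DMSO set alone, no variance trend, only the groups compared, the mitochondrial share with the block, and leaving out samples. Samples were left out only from the fit without the block. That fit treats all samples as independent, although those with the same number deviated together.

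Genes are named by a rule: the IKK, NF-κB subunit and inhibitor lists, up to 12 rises and 12 falls with the largest log2 fold change among called genes without overlap, and up to 4 members of other lists. Not every gene this selects is reported. Genes outside the rule were named after their values were seen: *Ifit1*, *Il1b*, *Il6*, *Nos2*, *Cxcl2*, *Cxcl3*, *Ccl3*, *Ccl4*, *Fosl2*, *Npy*, *Ggta1*, *Arid5a*, *Asns*, *Bbc3*, *Sh3gl1*, the 8 genes that differed from Mubritinib, the opposite-strand partners, and the sterol genes other than *Cyp51*, *Hmgcs1* and *Sc5d*. Some genes that entered the fits and counts are not reported here by name. The direct differences from the other inhibitors listed in the closing section are all those that passed among the reported genes of the rule and of the 47 changed genes, plus the 8 for Mubritinib. Members and lists were chosen with earlier results of these data known. Python 3.11.15 with NumPy 2.4.6, pandas 2.3.3 and matplotlib 3.10.9 was used, and upstream sequences are RefSeq's of GRCm38.p6.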

Additional observations from a re-analysis of the deposited data

Results flagged for a closer look

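Among 145 values checked in the 6 DMSO samples, 11 (7.59%) had an extreme sample whose gap to the next was over 0.625 of the group's range, where chance gives about 1 in 20. The gap, as a share of the range, was at the lowest sample, replicate 3 of set 1, for *Tab3* (0.643), *Traf3* (0.698), *Cyld* (0.634), *Klf6* (0.737), *Bcl2l11* (0.715). Replicate 1 of set 2 was the highest sample for *Ifnb1* (0.711), *Ngp* (0.703) and the lowest for *Cyp51* (0.712). Replicate 2 of set 2 was the highest for *Nfkbiz* (0.644), *Col1a1* (0.644) and the lowest for *Rplp0* (0.672). Without replicate 3 of set 1, IMD-0354 changed 49 genes, without replicate 1 of set 2 it changed 56, and without replicate 2 of set 2 it changed 33.

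The direct test found that IMD-0354 differed from another inhibitor at the genes below, which are those among the reported named and changed genes that passed, with the log2 difference of IMD-0354 minus the other inhibitor in brackets. For Midostaurin it was above 0 for *Ccl2* (1.56), *Ifnb1* (5.23), *Irf5* (0.54), *Jmjd1c* (1.27), *Klf6* (0.83), *Nfkbiz* (0.54), *Pcdh7* (0.76), *Rel* (0.64), *Rsad2* (2.63), *Slc38a2* (0.87), *Tnf* (1.68), *Tspan33* (1.99). It was below 0 for *B3gnt7* (-3.52), *Bcl3* (-1.31), *Car2* (-2.56), *Cemip2* (-1.49), *Cnn3* (-2.64), *Cyp51* (-0.57), *D16Ertd472e* (-1.15), *Dusp16* (-0.80), *Etv3* (-1.05), *Etv3l* (-1.16), *Ggta1* (-2.01), *Gpr146* (-2.93), *Hmgcs1* (-0.82), *Hsd17b7* (-0.83), *Ier3* (-0.85), *Il4ra* (-2.47), *Msmo1* (-0.50), *Pdgfrb* (-1.61), *Pfkfb3* (-2.24), *Ptpn1* (-1.15), *Rnd1* (-2.38), *Rnf125* (-3.40), *Sbno2* (-2.08), *Sc5d* (-0.64), *Sema4c* (-2.53), *Sh3gl1* (-0.98), *Stard5* (-0.95), *Steap4* (-3.12), *Tha1* (-1.72), *Tle3* (-1.75), *Tnip1* (-0.72), *Zc3h12a* (-0.71). For Momelotinib it was above 0 for *Ccl2* (0.63), *Ifnb1* (2.74), *Rgcc* (0.84). It was below 0 for *B3gnt7* (-1.999), *Bcl3* (-0.90), *Car2* (-1.59), *Cyp51* (-0.62), *Ggta1* (-1.29), *Gpr146* (-1.41), *Hmgcs1* (-0.79), *Hsd17b7* (-0.82), *Il4ra* (-1.29), *Msmo1* (-0.53), *Pfkfb3* (-1.62), *Rnf125* (-1.63), *Sbno2* (-1.32), *Sc5d* (-0.63), *Sema4c* (-1.32). For Mubritinib, over all genes tested, it was above 0 for *Gm15441* (2.299), *Rarg* (0.83), *Rhob* (0.89), *Tsc22d1* (0.48), *Txnip* (2.43) and below 0 for *Atf4* (-0.52), *Fos* (-0.91), *Gdf15* (-3.33).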

How the results depend on the processing

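All 47 genes changed by IMD-0354 kept their direction in each of the 11 alternative fits and without each of the 9 samples in turn, among those that could be tested (42 at a mean of at least 50), and 12 of them stayed called without any 1 sample. The 47 calls became 159 without a filter on low values (125 higher), 23 and 24 with DMSO set 1 or set 2 alone, 24 with a log2 fold change of at least 1, 3 in a fit of only the groups compared, 85 with the mitochondrial share and the block, and 16 to 75 when 1 sample was left out. In the fit of only the groups compared, *Il4ra*, *B3gnt7* and *Cxcl1* remained. The split of 13 higher and 34 lower became 10 and 48 with the median-of-ratios scaling. The counts for Midostaurin, Momelotinib and Mubritinib, which were 310, 42 and 8, became 529, 245 and 193 without a filter, 159, 20 and 3 with the fold change limit, and 115, 3 and 0 by limma with only the groups compared. Leaving out 1 sample gave 217 to 277, 19 to 37 and 3 to 7. The cause of these differences was not tested, other than that fewer samples or degrees of freedom enter some of the fits.

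In the paired fit, with a replicate block, 111 genes were called against DMSO, 500 against Midostaurin, 76 against Momelotinib and 25 against Mubritinib. The mitochondrial share differed by 0.330 with p = 0.037 in the exact permutation test within replicate numbers, the smallest p that 27 splits can give. Low values limit the genes near the filter, and a raw depth is not given.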
